A study of Mus musculus with 8 samples.

Results

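The genes described here build and run motile cilia, the beating hairs of ependymal cells, which line the ventricles beside the hippocampus. They are 36 genes of the axoneme, its assembly and the multiciliated cell programme, with axonemal dynein heavy chains left out, among 20660 named genes on the array. They were chosen by function, and selected on results of these arrays already known: a few ependymal marker genes had stood lower in Ts1Cje, and Tmem212 and Ccdc153 were among them. Their genotype differences are therefore a description: no p-value is given for any of them, and counts and intervals from the fit over all features support nothing.

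Total hippocampal RNA of 8 mice aged 3 months, 4 Ts1Cje and 4 wild type, was hybridised to 1-colour Agilent arrays. Both groups carried the C57BL6/J label, and the series' design text describes 4 pairs of Ts1Cje mice and disomic littermates. Ts1Cje is a Down syndrome model in which distal chromosome 16 from Sod1 to Zbtb21 is present in an additional copy, with 1 Sod1 copy disrupted, and the distal end of 1 chromosome 12 is deleted. Wild-type mice had neither change. None of the 36 genes lies from Sod1 to Zbtb21; Cfap44, the only one on chromosome 16, lies proximal to Sod1. Between 59.9% and 63.1% of 55681 probes were well above background per array, all 8 arrays shared 1 slide and 1 scan, and wild type lay only in slide columns 1 and 3 and Ts1Cje only in 2 and 4, which leaves effects of slide column and of genotype that cannot be told apart. All 7 hippocampal neuron markers examined, Prox1 and Wfs1 among them, were above background on all 8 arrays, and so were 5 of 6 striatal and 6 of 6 thalamic and habenular markers.

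A motile axoneme is a cylinder of doublet microtubules around a central pair. Dynein arms on the doublets slide them, radial spokes and the nexin-dynein regulatory complex coordinate the sliding, and inner proteins stabilise the lumen of each doublet. Multiciliated cells switch on these genes through Mcidas, Foxj1 and RFX factors, and amplify centrioles with the help of Ccno. In the brain, ependymal cells carry such cilia, and the choroid plexus epithelium is also multiciliated. In whole-tissue RNA, fewer ependymal cells and less RNA per cell cannot be told apart.

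RFX factors bind the X-box, a palindrome with the arms GTTNCC and GGNAAC. RefSeq promoters (GRCm38.p6) were given for 31 of the 36 genes in 38 windows, and the 250 bases upstream of the annotated start were searched on both strands. A single X-box arm, GTTGCC, was found in 16 of the 38 windows (42.1%), against 10.4% of all 32851 windows and 10.5% of those of protein-coding genes. The arm was in 29.4% of the windows of intraflagellar transport genes. In the other cilium genes listed, those of the multiciliated cell programme included, it was in 29.9%. The full X-box, with its arms 0 to 3 bases apart, was in 1 window (2.63%), that of Pifo, against 0.673% of all windows. It was in 7.79% of the windows of these other cilium genes and in 11.8% of those of intraflagellar transport genes. The forkhead motif TGTTTAC, the class that FOXJ1 belongs to, was in 2 (5.26%, Cfap43 and Mlf1), against 3.17% of all. These are matches of letters and not measured binding. The stretches that follow show the arm in capitals for 1 gene of each role in which it was found. In each role this was the measured gene with the arm that had the lowest difference, Ts1Cje minus wild type. They are read 5′ to 3′ on the gene's strand, and GGCAAC is the same arm on the opposite strand. Pifo is added for its full X-box, which the capitals mark there and whose right end is that arm.
Ccno, chr13:112987553-112987618 (+): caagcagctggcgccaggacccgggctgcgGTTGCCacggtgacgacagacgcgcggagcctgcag
Hydin, chr8:110266934-110266976 (+): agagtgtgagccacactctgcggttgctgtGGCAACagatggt
Ccdc153, chr9:44240495-44240560 (+): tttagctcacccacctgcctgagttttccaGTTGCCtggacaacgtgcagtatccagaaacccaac
Tekt2, chr4:126325689-126325740 (-): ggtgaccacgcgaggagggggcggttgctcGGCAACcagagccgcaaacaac
Dynlrb2, chr8:116504934-116504999 (+): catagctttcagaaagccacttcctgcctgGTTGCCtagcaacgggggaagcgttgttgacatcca
Mlf1, chr3:67373962-67374027 (+): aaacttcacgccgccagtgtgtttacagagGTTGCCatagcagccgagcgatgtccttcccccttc
Pifo, chr3:106001498-106001547 (-): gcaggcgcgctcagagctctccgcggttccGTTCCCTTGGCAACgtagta

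Of the 36 genes, 35 had a probe and 31 were measured, meaning that in 1 genotype or both every array had a probe of the gene well above background. Cfap53 was above background on 3 of 4 Ts1Cje arrays and the other 30 on all 8. Ccdc40, a ruler protein of the doublet, had no probe named for it. Spag16 and Spag17 (central pair), the kinase gene Mak and Lrriq1 were not measured. Levels below are log2 signals relative to the 75th percentile of each array, from the brightest measured probe of a gene, and differences are Ts1Cje minus wild type with the limma standard error (SE).

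Most of the measured genes stood slightly lower in Ts1Cje. The difference was below 0 for 26 of 31, where 52.7% of all 24022 features were below 0, and the median was -0.23 against -0.0072 over all features. Among the 30 genes above background on all 8 arrays, 25 were below 0 with a median of -0.22. Single differences ran from -0.73 for Tmem212 to 0.14 for Hydin. None of the 31 passed a Benjamini-Hochberg adjusted p of 0.05 in limma, where 0.0208% of all features passed as lower and 0.175% as higher. Of the 31, 12 had an unadjusted p under 0.05 in the lower direction (4.57% of all features) and 0 in the higher direction (4.15%). The arrays of the genotypes did not overlap for 3, Tmem212, Rsph1 and Wdr78, all lower (3.7% of all features). Since known results of this contrast chose the genes, nothing is read from these counts.

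**Figure D1:**
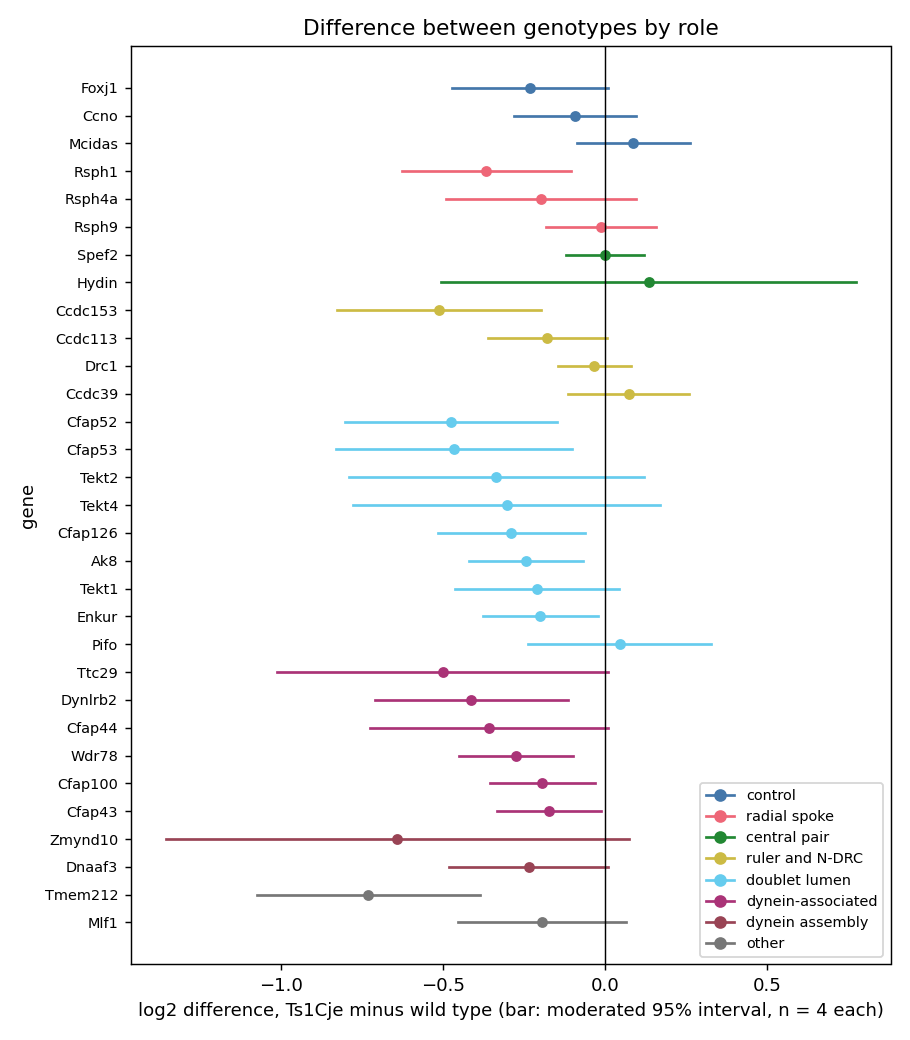
Log2 difference (x axis, Ts1Cje minus wild type) of the 31 measured genes (y axis), coloured by role, with moderated 95% intervals, n = 4 per genotype. Most points lie left of 0, from -0.73 for Tmem212 to 0.14 for Hydin, and the interval of Zmynd10 is the widest on the negative side.

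Of the 3 genes of transcription and centriole control, none differed between genotypes beyond the overlap of its arrays. Foxj1, the forkhead factor that drives the motile cilium programme, stood at -0.51, -0.40, -0.63 and -0.30 in wild-type replicates 1 to 4 and at -0.76, -0.90, -0.52 and -0.57 in Ts1Cje. Ts1Cje replicates 3 and 4 lay within the wild-type range, and the difference was -0.23 (SE 0.10). Mcidas, a coactivator upstream of Foxj1, stood at 6.65, 6.81, 6.54 and 6.81 in wild type and at 6.68, 6.80, 6.82 and 6.85 in Ts1Cje. Its difference was 0.09 (SE 0.08), and the ranges overlapped. This signal is bright for a gene of a rare cell type, and whether the probe reads Mcidas alone was not examined. Ccno, a cyclin-family gene needed for centriole amplification, stood at -0.13, -0.17, -0.11 and -0.16 in wild type and at -0.02, -0.41, -0.31 and -0.20 in Ts1Cje, with a difference of -0.09 (SE 0.08). The Ts1Cje values of Ccno lay on both sides of the narrow wild-type range. Leaving out 1 array moved Mcidas to 0.03 (without wild-type replicate 3) and Ccno to -0.03 (without Ts1Cje replicate 2) or -0.16 (without Ts1Cje replicate 1). Each of these 3 genes rested on 1 probe.

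Radial spoke genes were represented by Rsph1, Rsph4a and Rsph9, with differences from -0.37 to -0.011. Rsph1, a spoke head protein, stood at -0.06, -0.28, -0.43 and -0.42 in wild type and at -0.63, -0.89, -0.45 and -0.68 in Ts1Cje, so that every Ts1Cje array was below every wild-type array, Ts1Cje replicate 3 by a narrow margin. Its difference was -0.37 (SE 0.11), or 0.776-fold, and its other probe gave -0.15 with overlapping arrays. Rsph9, also of the spoke head, stood at 2.89, 2.75, 2.79 and 2.69 against 2.95, 2.67, 2.74 and 2.71, a difference of -0.011 (SE 0.07) with the ranges on top of each other. The 1 probe of Rsph9 was brighter than those of Rsph1 and Rsph4a, and its specificity was not examined. Rsph4a, a further head protein, gave -0.20 (SE 0.13) on the probe used, with overlap, and -0.34 on the other, without. The former went to -0.08 without Ts1Cje replicate 1 and to -0.12 with normexp background correction.

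The central pair was covered only in part. Spef2, a central pair protein, stood between 4.69 and 4.87 on all 8 arrays, with a difference of 0.00065 (SE 0.05). Its probe too is bright for such a gene, its specificity was not examined, and the central pair rests on this gene and Hydin. Hydin, a large central pair protein whose loss in mice causes hydrocephalus, stood at -2.49, -2.31, -2.92 and -2.33 in wild type and at -2.63, -2.79, -1.53 and -2.57 in Ts1Cje. Ts1Cje replicate 3 was the highest of the 8 arrays, and without it the difference went from 0.14 (SE 0.28) to -0.15.

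Among genes of the doublet ruler and the nexin-dynein regulatory complex, Ccdc153 stood apart from the other 3. Ccdc153, a component of that complex, stood at 1.00, 1.30, 0.79 and 1.26 in wild type and at 0.44, 0.42, 0.83 and 0.61 in Ts1Cje. Ts1Cje replicate 3 lay just above wild-type replicate 3, and all other Ts1Cje arrays were below all wild-type arrays. The difference was -0.51 (SE 0.14), or 0.701-fold. Ccdc39, which with Ccdc40 sets the repeat along the doublet, stood at -1.94, -1.89, -1.99 and -1.89 against -1.72, -1.97, -1.71 and -2.01, a difference of 0.07 (SE 0.08) with full overlap. Drc1 (-0.03, SE 0.05), a base of the complex, and Ccdc113 (-0.18, SE 0.08, and -0.11 without Ts1Cje replicate 2) also overlapped between genotypes. The 1 probe of Drc1, at 2.26 on average in wild type, was brighter than those of Ccdc39, Ccdc153 and Ccdc113. Its specificity was not examined.

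Proteins inside the doublet formed the largest group: 8 of 9 were lower, with a median of -0.29, and 7 of the 8 above background on all 8 arrays, with a median of -0.27. Cfap52, an inner protein of the doublet, stood at -1.88, -1.28, -1.42 and -1.38 in wild type and at -2.06, -2.15, -1.76 and -1.90 in Ts1Cje, with a difference of -0.47 (SE 0.14). Wild-type replicate 1 lay among the Ts1Cje arrays, and the other wild-type arrays were above them. Cfap53, kept through the wild-type arrays, stood at -0.47 (SE 0.16), and at -0.15 with normexp. The tektins Tekt1, Tekt2 and Tekt4, filament proteins of the doublet wall, stood at -0.21 (SE 0.11), -0.34 (SE 0.20) and -0.30 (SE 0.21). Without single wild-type arrays Tekt1 went to -0.33 (replicate 3), Tekt2 to -0.20 (replicate 1) or -0.52 (replicate 3), and Tekt4 to -0.17 (replicate 4) or -0.20 (replicate 3). Cfap126 (-0.29, SE 0.10), Ak8 (-0.24, SE 0.08) and Enkur (-0.20, SE 0.08) were also below 0. Pifo was the exception, at -3.27, -3.05, -3.60 and -3.35 in wild type and -3.20, -3.09, -3.43 and -3.36 in Ts1Cje, a difference of 0.05 (SE 0.12).

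All 6 genes of dynein docking, tethers and non-heavy subunits were lower, with a median of -0.32. Wdr78, an intermediate chain of an inner dynein arm, stood at 0.84, 0.93, 0.97 and 1.18 in wild type and at 0.62, 0.75, 0.73 and 0.73 in Ts1Cje. Its genotypes did not overlap, and the difference was -0.27 (SE 0.08), or 0.827-fold. Ttc29, a dynein-associated protein of cilia and sperm tails, stood at -3.45, -3.35, -3.89 and -3.07 against -3.65, -4.49, -3.79 and -3.81. Its difference of -0.50 (SE 0.22) went with overlap, since wild-type replicate 3 lay below 3 of the Ts1Cje arrays. It went to -0.32 without Ts1Cje replicate 2 and to -0.25 with normexp. Cfap43, a tether of the inner dynein arms, had the smallest difference of the group (-0.17, SE 0.07), at -2.40, -2.38, -2.48 and -2.38 against -2.75, -2.60, -2.45 and -2.53, with only Ts1Cje replicate 3 in the wild-type range. Cfap44, its partner, gave -0.36 (SE 0.16; -0.12 with normexp), Cfap100 gave -0.19 (SE 0.07), and both overlapped. Dynlrb2, a dynein light chain gene whose promoter is shown above, stood at 0.43, 0.60, 0.34 and 0.68 against 0.03, -0.14, 0.44 and 0.09, a difference of -0.41 (SE 0.13) in which Ts1Cje replicate 3 again lay within the wild-type range.

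Both assembly factors of dynein arms were lower with overlapping arrays. Zmynd10 stood at -1.31, -1.38, -0.05 and -1.56 in wild type and at -1.42, -1.82, -1.81 and -1.82 in Ts1Cje. Wild-type replicate 3 was far above the other 7 arrays, and without it the difference went from -0.64 (SE 0.31) to -0.30. Dnaaf3 stood at -1.42, -1.61, -1.88 and -1.59 against -1.66, -1.94, -1.93 and -1.91, a difference of -0.24 (SE 0.11).

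Tmem212, a membrane protein gene used as an ependymal marker, had the largest difference of the 31. It stood at -0.26, -0.22, -0.49 and 0.04 in wild type and at -1.04, -1.25, -0.63 and -0.94 in Ts1Cje. Every Ts1Cje array lay below every wild-type array, and the difference was -0.73 (SE 0.15), or 0.603-fold, on 1 probe. Mlf1, found with motile cilium genes in several tissues, stood at -2.03, -1.94, -2.32 and -1.94 against -2.49, -2.25, -2.12 and -2.15, a difference of -0.19 (SE 0.11) with overlap (-0.11 without Ts1Cje replicate 1).

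**Figure D2:**
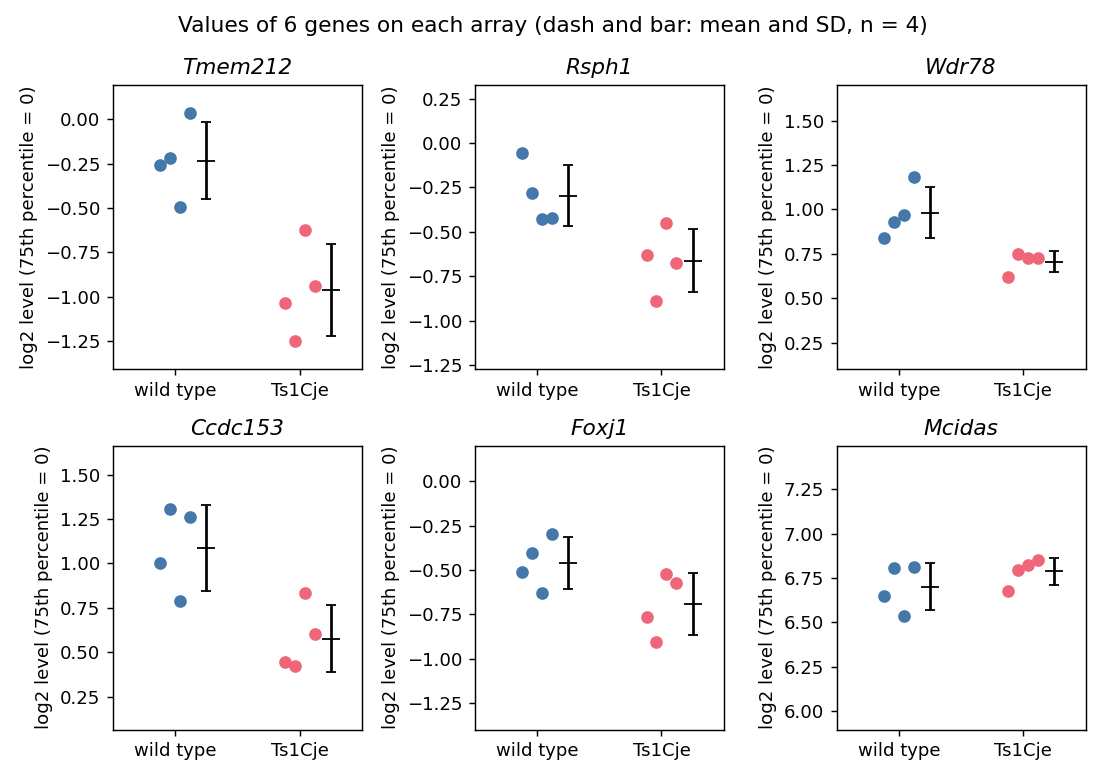
Log2 level (y axis, 0 is the array's 75th percentile; each panel spans the same height) of 6 genes on each array, with mean and SD (n = 4). Genotypes are separate for Tmem212, Rsph1 and Wdr78, touch for Ccdc153 and overlap for Foxj1 and Mcidas.

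The array score, the mean over the 31 genes of each gene's deviation from its own mean over the 8 arrays, describes the genes together and includes those already known as lower. It was 0.12, 0.15, 0.01 and 0.20 in wild-type replicates 1 to 4 and -0.12, -0.24, -0.02 and -0.11 in Ts1Cje. Wild type averaged 0.12 ± 0.08 and Ts1Cje -0.12 ± 0.09 (SD, n = 4 each), a difference of -0.24 on the log2 scale. Wild-type replicate 3 and Ts1Cje replicate 3 met near 0, and the remaining arrays were well separated. Counted by gene, 24, 27, 14 and 26 of the 31 stood above their own mean in wild-type replicates 1 to 4, and 9, 3, 13 and 5 in Ts1Cje. Over all features that share lay between 44.4% and 56.3% per array. In the slide row that held replicates 1 and 2 of both genotypes the score difference was -0.32, and in the row of replicates 3 and 4 it was -0.17 (n = 2 per genotype in each). Without Zmynd10 the score difference was -0.23, and wild-type replicate 3 then fell below Ts1Cje replicate 3, so that the arrays overlapped. Without Tmem212 and Ccdc153, known as lower from the start, the score of the other 29 genes differed by -0.22. The arrays did not overlap there, which again rested on Zmynd10 in wild-type replicate 3. Of the 29, 24 were below 0 with a median of -0.21. Others of the 29 may have been among the markers already known as lower, so these values too are only a description.

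**Figure D3:**
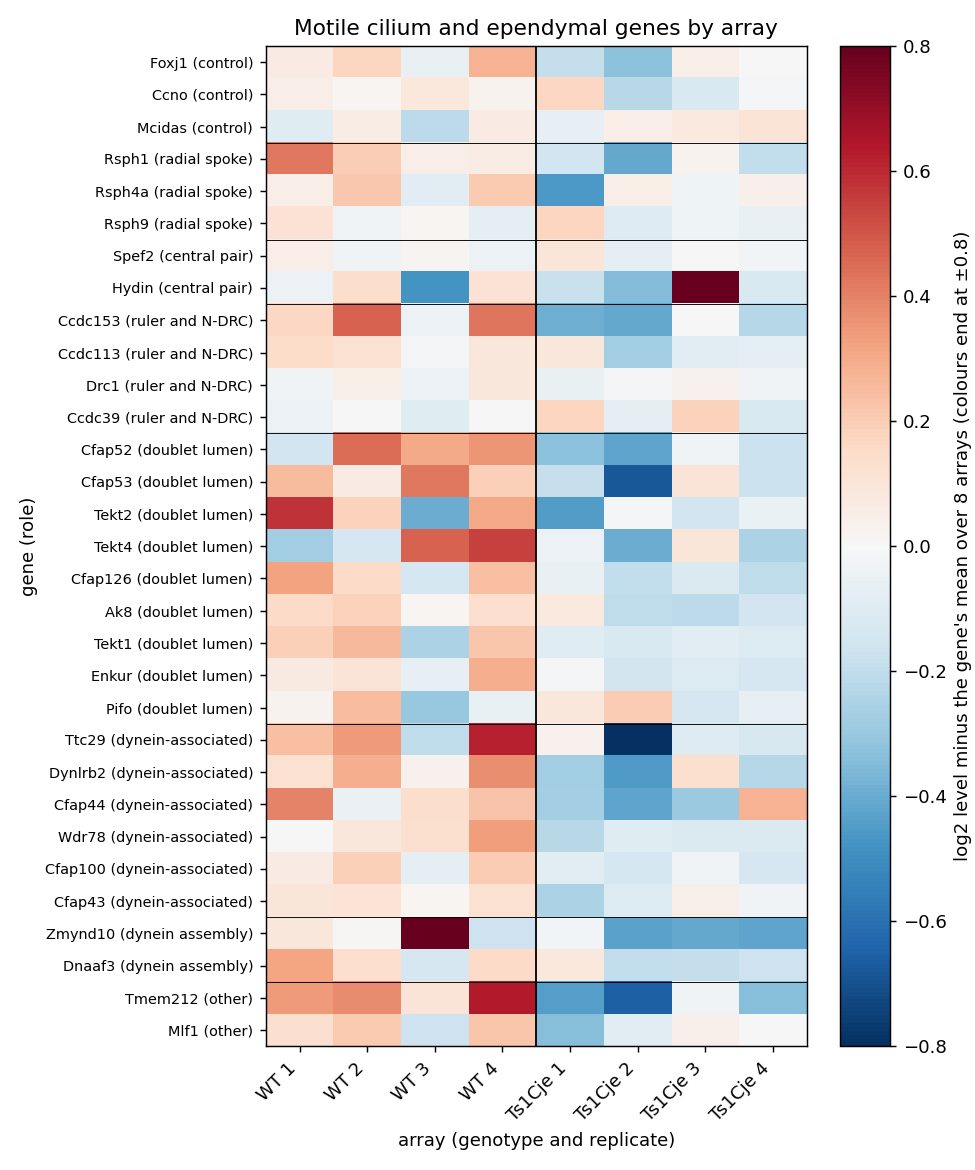
Deviation of each gene (rows, by role) from its own mean over the 8 arrays (columns), in log2 units with the colours ending at ±0.8. Wild-type replicate 3 is paler or bluer than the other wild-type arrays, Ts1Cje replicate 2 is the bluest, and Zmynd10 in wild-type replicate 3 and Hydin in Ts1Cje replicate 3 stand alone.

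Arrays of a genotype also differed among themselves. In wild-type replicates 1 to 4, 16, 23, 7 and 24 of the 31 genes stood above the mean of their own genotype, or 51.6%, 74.2%, 22.6% and 77.4%, against 48.6%, 54.0%, 42.8% and 55.4% of all features. In Ts1Cje, 17, 7, 22 and 15 did, or 54.8%, 22.6%, 71.0% and 48.4%, against 52.0%, 48.1%, 45.3% and 54.3% of all features. All features leaned the same way as the cilium genes, by less, in wild-type replicates 2, 3 and 4 and in Ts1Cje replicates 1 and 2. They leaned the other way in wild-type replicate 1 and in Ts1Cje replicates 3 and 4. By role, the scores of the genotypes did not overlap for radial spokes, doublet inner proteins and dynein docking and tethers. For radial spokes the margin was narrow, with wild-type replicate 3 at -0.0057 and Ts1Cje replicate 3 at -0.012. The scores overlapped for control genes, the central pair, the ruler and regulatory complex, assembly factors and the remaining genes. The median difference was -0.19 over the 13 measured genes with the X-box arm in their promoter, 10 of them below 0, and -0.24 over the 13 without it, 11 of them below 0. Foxj1, Rsph1, Rsph4a, Cfap53 and Wdr78, measured but without a promoter window, are in neither group.

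Cilium genes outside the 36 were read from a further list of 100, of which 80 were measured. Of these 80, 50 were below 0 with a median of -0.05, where 52.7% of all features were below 0. In limma, 0 passed the adjusted threshold as lower and 1 as higher (0.0208% and 0.175% of all features). An unadjusted limma p under 0.05 was found for 8 as lower and 1 as higher (4.57% and 4.15% of all features). The one that passed was Cfap298, a dynein assembly factor gene that lies from Sod1 to Zbtb21 and is thus present in an extra copy. Cfap298 stood at 3.62, 3.62, 3.65 and 3.61 in wild type and at 4.24, 4.12, 4.15 and 4.15 in Ts1Cje, 1.46-fold higher (log2 0.54, SE 0.04, limma adjusted p = 0.0077). Without Ts1Cje replicate 4 its limma adjusted p was 0.0504, and over all alternatives it ran from 0.0027 to 0.087. The lowest of the others were Armc3 (-0.41, SE 0.11, limma adjusted p = 0.35) and Cfap161 (-0.40, SE 0.14, 0.49), and the highest were Ift140 (0.38, SE 0.23, 0.66) and E2f5 (0.35, SE 0.37, 0.80). Both of the latter rest on 1 array: Ift140 stood at 0.14 without wild-type replicate 3, and E2f5 at -0.07 without Ts1Cje replicate 3. Cfap161 stood at -0.27 without Ts1Cje replicate 2.

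The 4 groups of that list had medians from -0.09 to 0.04, and the share below 0 was highest among further axoneme genes. Intraflagellar transport genes, which all cilia use, including the primary cilium of neurons, had a median of -0.04 with 12 of 21 below 0. Further dynein arm, docking and assembly genes stood at -0.04 (9 of 15 below 0, Cfap298 included) and further axoneme genes at -0.09 (24 of 32). Of these 32, 6 had an unadjusted limma p under 0.05 as lower and 0 as higher (4.57% and 4.15% of all features). Further genes of the multiciliated cell programme, such as Gmnc, Trp73 and the RFX factors, stood at 0.04 (5 of 12). Genotypes did not overlap in the lower direction for 6 of the 80 genes, against 3.7% of all features. Among the 6 were Ift57, Ift80, Ift88, Dnai1 and Cfap161, named here after their values were seen. Dnai1, an outer arm intermediate chain, had a difference of -0.24 (SE 0.05, limma adjusted p = 0.26). The array score of the 58 genes of this list without transport genes and Cfap298 differed by -0.05 and overlapped between genotypes. These 58 include the genes of the multiciliated cell programme. The score of the 32 further axoneme genes alone differed by -0.09, also with overlap.

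Of 13 axonemal dynein heavy chains, 8 were measured, and 7 of them ran from -0.56 to 0.12 with a median of -0.25. None of these 7 passed: Dnah10, an inner arm chain, stood at -0.52 (SE 0.08, limma adjusted p = 0.054) and Dnah1 at -0.56 (SE 0.16, 0.40), both without overlap. The score of the 7 differed by -0.22 and did not overlap, with wild-type replicate 3 (0.065) and Ts1Cje replicate 3 (-0.0083) nearest. That gap rested on Dnah1, which was highest in wild-type replicate 3, at -2.73. The eighth, Dnah11 at the deleted end of chromosome 12, was 125-fold higher in Ts1Cje (log2 6.96, SE 0.17, limma adjusted p = 2.0e-06).

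**Figure D4:**
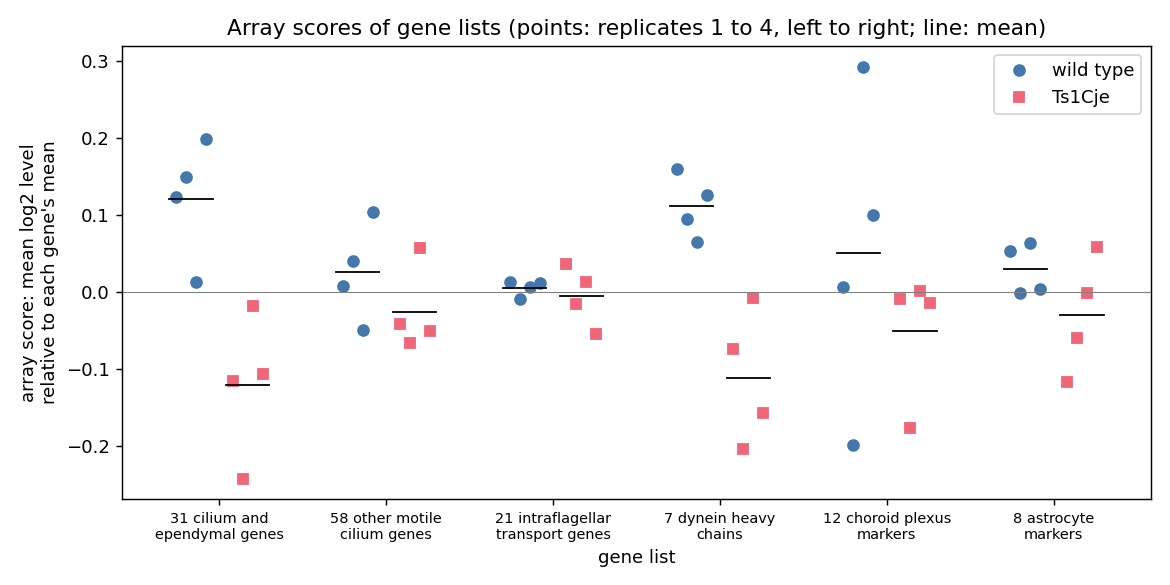
Array score (y axis, mean log2 level relative to each gene's own mean) for 6 gene lists, with 1 point per array (circles wild type, squares Ts1Cje) and a line at each mean. The 31 cilium and ependymal genes separate the genotypes narrowly and only with Zmynd10 included. The 7 dynein heavy chains also separate them, with a gap that rests on Dnah1 in wild-type replicate 3. The other 4 lists overlap.

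Markers of neighbouring cell types were set beside these values. Choroid plexus epithelium was represented by 12 measured of 14 markers, all 12 above background on all 8 arrays; its signals relative to the 75th percentile summed to 4.82 to 12.6 in wild type and 7.65 to 8.62 in Ts1Cje. Ttr, its most abundant secreted protein gene, stood at 0.49, -0.17, 1.99 and 1.31 in wild type and 1.42, 0.82, 0.42 and 0.87 in Ts1Cje. Its highest value was in wild-type replicate 3 and its lowest in wild-type replicate 2. Slc13a4, on average the brightest of the 12, stood at 2.37, 0.33, 2.52 and 1.34 in wild type and 1.73, 1.81, 1.86 and 1.87 in Ts1Cje. The summed signals weigh such bright genes most. The choroid score was 0.0065, -0.20, 0.29 and 0.10 in wild type and -0.0092, -0.18, 0.00066 and -0.01 in Ts1Cje, with a difference of -0.10 and overlap. The 12 markers had a median of -0.01, with 7 below 0 and 5 above. The lowest was Otx2, a choroid plexus transcription factor, at -0.77 (SE 0.29, limma adjusted p = 0.51). The highest was Sostdc1 at 0.24 (SE 0.09, limma adjusted p = 0.53).

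Astrocyte markers, 8 of 8 measured, had a median of -0.06 and summed to 112 to 121 in wild type and 115 to 123 in Ts1Cje. Hippocampal neuron markers had a median of -0.11 and overlapped in their summed signals, from 65.4 to 73.5 in wild type. Ventricular zone stem cell and neuroblast markers, 6 of 6 measured, had a median of -0.11 and summed to 2.61 to 3.02 and 2.62 to 2.80. Striatal markers had a median of 0.02 (sums 13.3 to 14.9 and 11.7 to 13.5), thalamic and habenular markers of 0.09 (3.40 to 3.73 and 3.50 to 3.71), and mural cell and fibroblast markers of -0.08 (19.5 to 34.5 and 28.4 to 33.4). The scores of all 7 marker lists overlapped between genotypes, and no marker passed the adjusted threshold. The part of neighbouring cell types in the lower cilium values was not tested.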

How the data were processed

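Per the file headers, the software behind the values was Agilent Feature Extraction (version 10.10.1.1), for a probe design of mouse build mm9. Each deposited file gives intensity on a linear scale, background-corrected by that software and not normalized between arrays, with flags deposited as other columns. Labelling used 0.1 µg of RNA, per the labels' protocols. Spots that were controls or outlier-flagged were dropped; none was saturated. The log2 processed signal was averaged per probe and each array's 75th percentile subtracted. A probe was kept if every array of 1 genotype or both had it well above background (32596), and 5 of them with a missing array were left out. Accessions in a GRCm38.p6 RefSeq table named 27235 probes. The brightest kept probe stood for a gene; 24022 features were fitted with limma 3.58.1 in R 4.3.3 without a block, adjusted by Benjamini-Hochberg over all features. The fit was tested on simulated data.

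The genes and lists were chosen with earlier results of these data known. By rule, values were given for the control genes, for the lowest and highest gene of each role, for genes without overlap, and for called or else the 2 lowest and 2 highest other cilium genes. The alternatives changed background correction (normexp, offset 50, on median signals, since the mean signal was not among the columns used), normalization, probe filter, probe rule, array weights, block and arrays. The design text's 4 littermate pairs were taken as separate animals, and p-values cover the spread among these samples. The number of arrays limits the precision. The values of 1 listed gene are not reported here. Plots used matplotlib 3.10.9 in Python 3.11.15.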

Additional observations from a re-analysis of the deposited data

Results flagged for a closer look

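In 72 groups of 4 arrays (the 31 genes and 5 list scores in each genotype), 7 held an array whose gap to its nearest neighbour was large for the group's range (Dixon's ratio above its 95% critical value). Chance gives about 1 in 20 such groups, here 3.6. Ts1Cje replicate 1 was that array for 4 genes. It was low for Rsph4a (-2.35, the others -1.92 to -1.83) and Wdr78 (0.62, the others 0.73 to 0.75), and high for Dnaaf3 (-1.66, the others -1.94 to -1.91) and Zmynd10 (-1.42, the others -1.82 to -1.81). Wild-type replicate 3 was low for Tekt1 (-0.40, the others 0.04 to 0.11) and high for Zmynd10 (-0.050, the others -1.56 to -1.31). For the choroid plexus score, Ts1Cje replicate 2 was low (-0.18, the others -0.01 to 0.00066).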

How the results depend on the processing

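The score difference of -0.24 ranged from -0.29 to -0.19 over normalization, filter, probe, weight and block settings and from -0.28 to -0.19 without single arrays. The median of -0.23 ranged from -0.28 to -0.17 in both kinds, and the count of genes below 0 from 25 to 28 (24 of 29 without Tmem212 and Ccdc153); no cilium gene of the 31 passed in any setting. The array median as centre moved the median of all features from -0.0072 to -0.06. The 47 calls over all features (42 higher, 5 lower) became 25 with that centre, 23 with no filter on dim probes and 89 with array weights, and 4 to 44 without single arrays: leaving out Ts1Cje replicate 4 gave 4, Ts1Cje replicate 2 gave 17, wild-type replicate 2 or 4 gave 24 and Ts1Cje replicate 3 gave 25. Quantile normalization made 78.3% of calls higher against 89.4%. With the replicate number as a block (replicate block) 1 feature passed and 0 other cilium genes. Correlations of same-numbered arrays' deviations were 0.24, 0.19, 0.11 and 0.05. Of the 8 arrays, 6 correlated best with their own number, wild-type replicate 3 only narrowly (0.106 against 0.104 with Ts1Cje replicate 1). Ts1Cje replicate 4 also did so only narrowly (0.050 against 0.045 with wild-type replicate 2). Same-numbered arrays also lay side by side on the slide, so that pairing and slide position cannot be told apart. The block moved the adjusted p of Cfap298 to 0.087. The call of Cfap298 was otherwise lost only without Ts1Cje replicate 4, so that counts of other cilium genes without single arrays were 0 to 1. Of 526 single-gene values, 508 moved by less than the replicate spread, 1 by more, and 17 changed sign, all within 0.15 of 0. Pifo gave -0.00059 with normexp, -0.0040 with the array median, -0.0059 with weights and -0.048 to 0.14 without single arrays; Rsph9 gave 0.0071 with quantile normalization and -0.071 to 0.025 without single arrays; Spef2 gave -0.050 with the array median, -0.0037 with weights and -0.031 to 0.027 without single arrays; Hydin gave -0.15 to 0.27 without single arrays. The cause was not tested. The slide row as a block was chosen after seeing the data, as was leaving out Zmynd10, or Tmem212 and Ccdc153. Cfap53, near background, moved from -0.47 to -0.15 with normexp.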

Other observations

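Ts1Cje replicate 3 stood far above the other 7 arrays for a pair of genes of the multiciliated cell programme, chosen here after their values were seen. Myb, a transcription factor of early multiciliated cells and of dividing cells, stood at -0.67 there, against -3.87 to -3.63 in the other Ts1Cje arrays and -3.57 to -2.63 in wild type. E2f5, a partner of the Mcidas complex, stood at 0.10 there, against -1.77 to -1.43 and -1.64 to -1.25.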
